A study of Mus musculus with 24 samples.

Results

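Tcap and 9 genes of fast skeletal muscle (Ckm, Mylpf, Tnnt3, Tnni2, Tnnc2, Atp2a1, Myh2, Myh4 and Pvalb) were followed through RNA sequencing of mouse aorta, as 10 of the 41128 genes listed in the deposited count table. The members were taken by gene symbol from a list selected on measured values of these same libraries, so their levels are a description and not an independent test. The question was whether Tcap moved with the other skeletal genes from one aorta to the next. Ppp3cb knockout mice (KO), which lack the catalytic beta subunit of the phosphatase calcineurin, were compared with wildtype mice (WT), each with and without angiotensin II (AngII), the peptide hormone that raises blood pressure. The 8 groups were KO AngII, KO control, WT AngII and WT control, each as female and male, with 3 aortas per group and 24 libraries in all. All mice were 5 months old and came from the B6,129S6 Ppp3cb line, in which the gene is disrupted throughout the body. Implanted osmotic minipumps released 500 ng of AngII per kg of body weight each minute over 4 weeks, and whether controls had a pump is not given in the sources used here. All were kept under a light and dark cycle, and the hour at which each aorta was taken is not given in the sources used here. Nothing in the labels says that replicates came from separate litters or preparation days, so p-values measure the spread between these aortas.

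The encoded proteins share a sarcomere. Tcap encodes telethonin, also called titin-cap, a small protein of the Z-disc that joins the ends of titin molecules and is known from skeletal and cardiac muscle. The fast fibre proteins around it include myosin heavy chains (Myh2, Myh4), a regulatory myosin light chain (Mylpf) and the troponin complex that makes the thin filament calcium-sensitive (Tnnt3, Tnni2, Tnnc2). They also include the calcium pump of the sarcoplasmic reticulum (Atp2a1), the calcium buffer parvalbumin (Pvalb) and the creatine kinase of muscle (Ckm). The wall of the aorta is built mostly of smooth muscle, which uses other myosins and has no troponin, so fast fibre proteins are not part of its contractile apparatus. In mouse skeletal muscle, Tcap mRNA is also known to cycle over the day.

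Tcap lies on chromosome 11 of mm10, at chr11:98383811-98384953 on the plus strand, and its 948 exonic bases fall in 2 blocks. None of its 899 windows of 50 bases occurred in another annotated transcript, and no other gene overlapped it. The start of its coding sequence is shown because all results turn on this transcript, with the start codon in capitals and the rest in lower case (GENCODE M21).
Tcap, first 120 coding bases: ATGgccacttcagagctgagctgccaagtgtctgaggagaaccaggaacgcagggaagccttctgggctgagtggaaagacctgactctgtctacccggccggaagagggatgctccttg

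The sequence before the annotated start was in the RefSeq promoter table (GRCm38.p6) for 7 of the 10 members, namely Ckm, Mylpf, Tnnc2, Atp2a1, Myh2, Myh4 and Pvalb. Within 250 bases upstream, both strands were searched for CAGCTG, the E-box form that myogenic factors prefer. It was found before Ckm, Mylpf, Atp2a1 and Myh4, and in 13% of all 32851 promoters. The 3 matches nearest a start are shown with the motif in capitals, as the shared letters of members with few counts in these aortas.
Mylpf, chr7:127211527-127211592, plus strand: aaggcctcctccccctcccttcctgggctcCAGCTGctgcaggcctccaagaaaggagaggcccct
Atp2a1, chr7:126463093-126463158, minus strand: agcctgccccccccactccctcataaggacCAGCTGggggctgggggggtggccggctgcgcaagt
Myh4, chr11:67237715-67237780, plus strand: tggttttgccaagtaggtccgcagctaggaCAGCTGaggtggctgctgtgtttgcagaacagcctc
The motif started at position -51 from the RefSeq start in Mylpf, -55 in Atp2a1 and -67 in Myh4. A match of letters is a description and does not show that a factor binds there.

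Library totals were 1523328 to 6352365 counts, with a median of 3835993. The smooth muscle markers Myh11 and Acta2 averaged 7223 ± 1568 and 4490 ± 1663 CPM (counts per 1000000 after TMM scaling, SD, n = 24). Ppp3cb read 11.2 to 30.3 CPM in KO and 28.1 to 69.4 CPM in WT aortas, and its log2 change was -1.06 ± 0.22 in control and -0.96 ± 0.22 under AngII (SE, edgeR adjusted p = 0.0297 and 0.0394). The 3 KO control female libraries were the shallowest (1523328 to 2401264 counts). Olfactory and vomeronasal receptor genes held 1002 to 1992 CPM of their protein-coding counts, against 111 to 1073 CPM in the other 21 libraries, so these ranges overlapped. No library had a count on chromosomes 9, X, Y or MT or at the far end of chromosome 8, so listed genes there were not measured here.

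Tcap was counted in every aorta and, in all but 1, stood above the other 9 genes together. It had 24 to 730 counts in each of the 24 libraries and 5260 counts in all, against 918 for the other 9 genes together. It made up 85.1% of the counts of the 10 genes, and between 25.8% and 97.7% in single libraries. In 23 of 24 libraries Tcap was above the summed CPM of the other 9, with a median ratio of 4.95 and a highest ratio of 42.7. The exception was WT AngII female 1, where Tcap read 6.004 CPM and the other 9 summed to 17.3 CPM. In other libraries single values of Myh2, Tnnt3, Mylpf, Atp2a1 and Myh4 read higher than that lowest Tcap level, up to 14.96 CPM for Myh2. Per kilobase of exon, Tcap averaged 63.1 ± 39.3 CPM (SD, n = 24), rank 213 of the 13386 protein-coding genes ranked on that scale. On this per-length scale Tcap stood 30.1-fold above Tnnt3, the next member, 58.9-fold above Mylpf, 368-fold above Ckm and 638-fold above Pvalb. All libraries were of aorta, so these ratios were not compared with those in skeletal muscle.

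**Figure D1:**
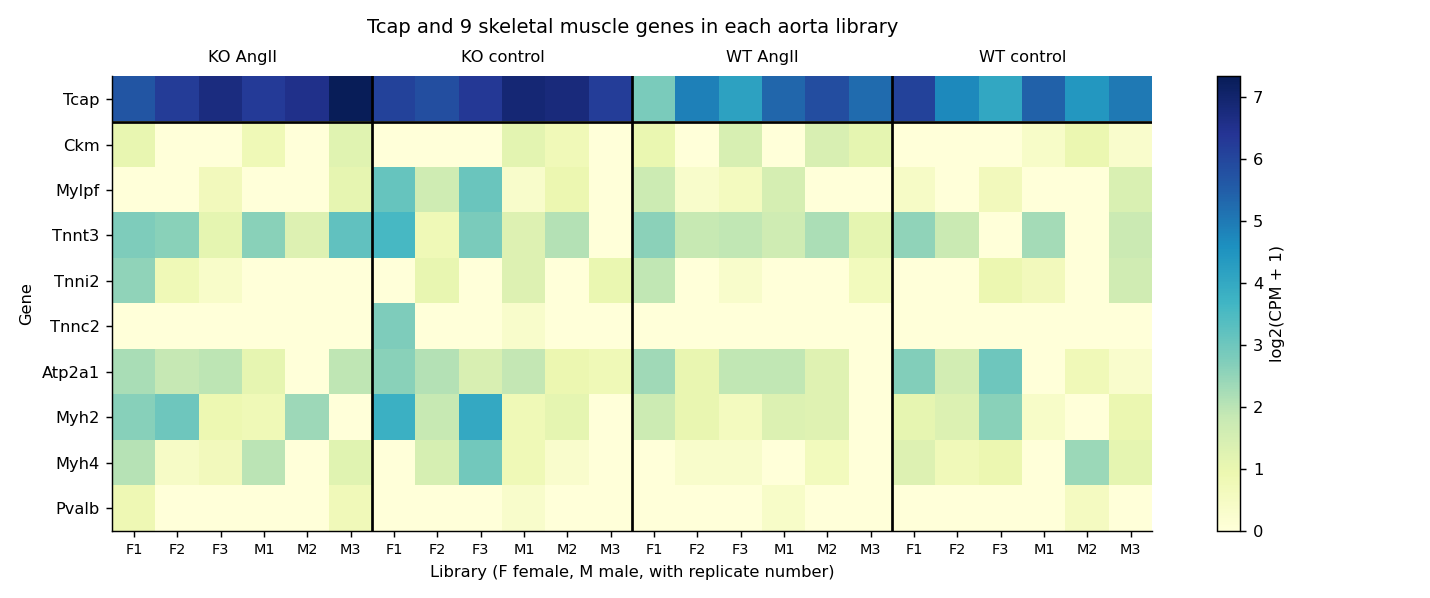
Colour gives log2(CPM + 1) of each gene (rows) in each of the 24 libraries (columns, F female and M male with the replicate number), in blocks of KO AngII, KO control, WT AngII and WT control. The Tcap row is coloured throughout, while the rows of the other 9 genes are pale or empty in most libraries.

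The myosin genes were sparse. Myh2, the heavy chain of fast oxidative fibres, had 188 counts in all and a highest count of 27, and it was at 0 in 4 libraries. Its lowest, median and highest levels were 0, 2.504 and 7.01 CPM in KO AngII, 0, 1.83 and 14.96 CPM in KO control, 0, 1.19 and 2.25 CPM in WT AngII, and 0, 1.02 and 5.17 CPM in WT control aortas. Both highest values came from KO control females, and the ranges of all 4 sets of 6 aortas overlapped. Myh4, the heavy chain of the fastest fibres, had 87 counts in 17 libraries, with medians of 0.947, 0.480, 0.123 and 1.04 CPM in KO AngII, KO control, WT AngII and WT control. Its single highest count, 18, was in WT control male 2. Of their 50-base windows, 24.6% (Myh2) and 18.9% (Myh4) also occurred in other transcripts, mainly of Myh1, so reads may be split among these heavy chains and their levels are uncertain. Mylpf, the fast regulatory light chain, shared no window and had 71 counts in 14 libraries. Its highest group median was 1.54 CPM in KO control, and KO AngII had counts in 2 of 6 libraries.

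Troponin genes ranged from the most detected of the 9 to the least. Tnnt3, the fast isoform of the subunit that binds tropomyosin, had 262 counts in 21 libraries. Its lowest, median and highest levels were 1.17, 5.15 and 8.08 CPM in KO AngII and 0, 2.33 and 10.8 CPM in KO control aortas. In WT AngII they were 1.15, 2.62 and 5.00 CPM, and in WT control 0, 2.36 and 4.76 CPM. The KO and WT ranges overlapped under both treatments. Tnni2, the fast inhibitory subunit, had 62 counts in 12 libraries, and 18 of them came from KO AngII female 1. Tnnc2, the fast calcium-binding subunit, had 10 counts, of which 9 were in KO control female 1. Close to the whole signal of Tnnc2 therefore sat in the shallowest library, and 47.9% of the Tnnc2 windows lie in exons of Ube2c on the opposite strand. Whether the counting used strand is not given in the sources used here.

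The calcium and energy genes had few counts as well. Atp2a1, the fast-fibre calcium pump, had 181 counts in 21 libraries, with medians of 2.71, 2.18, 2.04 and 1.33 CPM in KO AngII, KO control, WT AngII and WT control. Its highest value, 6.99 CPM, was in a WT control aorta, and 18.0% of its windows overlap Rabep2 on the opposite strand. Ckm had 47 counts in 12 libraries and no more than 7 in any. Pvalb had 10 counts in 5 libraries and no more than 3 in any. At these depths most single values of the 9 genes rest on a handful of reads, and a value of 0 says only that no read was counted.

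Over the 24 aortas the level of Tcap was only weakly correlated with the summed level of the other 9 skeletal genes. The counts of the 9 are too sparse, and the 9 vary too loosely with one another, for their sum to settle whether Tcap follows them. Between the log2 level of Tcap and the log2 summed level of the other 9, Pearson's r was 0.03 and Spearman's rank correlation was 0.09 over 24 aortas. These correlations are descriptions without a p-value, and points share sequencing depth and scaling. Without KO control female 1 and KO control male 3, which lie farthest from the median of the sum, they were 0.05 and 0.12. As deviations from the 8 group means they were -0.09 and -0.03. Within genotype both were negative, at -0.25 and -0.36 over 12 KO aortas and -0.41 and -0.35 over 12 WT aortas. Within sex the rank correlation was 0.11 in females and 0.39 in males. Of 11305 protein-coding genes compared, 3419 had a higher rank correlation to the sum of the 9 than Tcap had.

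Single libraries show the spread. KO control male 3 had 72.7 CPM of Tcap and 1.70 CPM of the other 9 together, which is the lowest sum of all. KO control female 1 had 66.2 CPM of Tcap and 42.0 CPM of the other 9, the highest sum. WT AngII female 1 had the lowest Tcap of all and the highest sum of the 12 WT aortas, 17.3 CPM. The lowest and the highest sum thus went with similar Tcap levels in the KO pair, and the lowest Tcap went with a high sum.

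**Figure D2:**
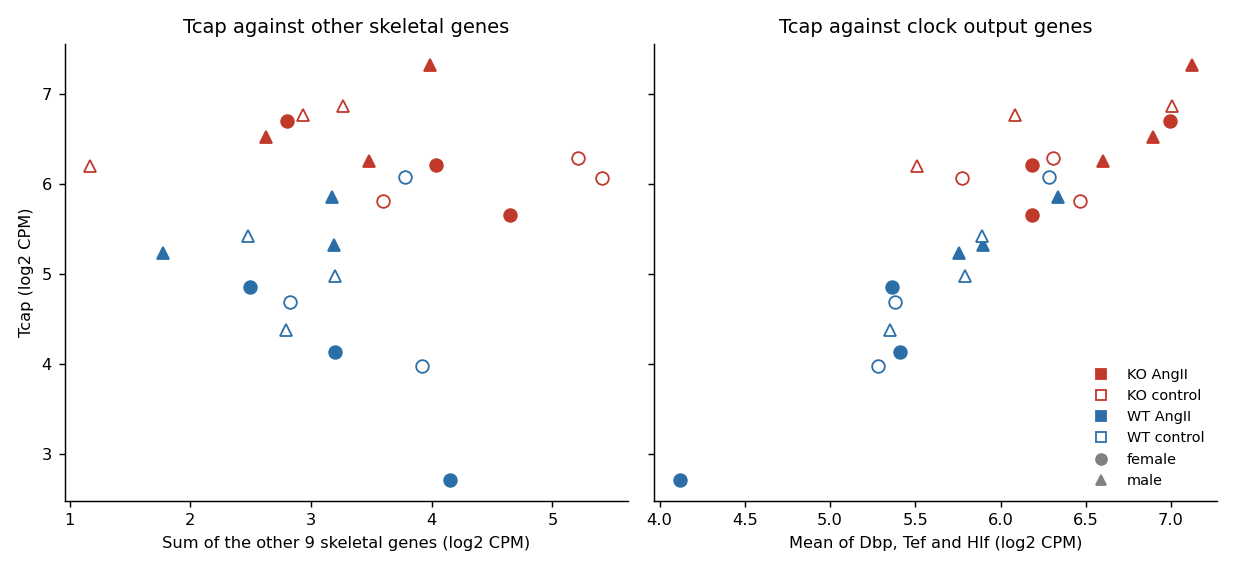
Each point is 1 aorta (red KO, blue WT, filled AngII, open control, circles female, triangles male), with Tcap in log2 CPM on the vertical axis. On the left, against the log2 summed CPM of the other 9 skeletal genes, the points form no line (rank correlation 0.09). On the right, against the mean log2 CPM of Dbp, Tef and Hlf, they rise together (rank correlation 0.86). Dbp, Tef and Hlf were picked for their likeness to Tcap in these same libraries, so the panels are not like measures.

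No single one of the 9 tracked Tcap closely. Over 24 aortas the rank correlation to Tcap was highest for Tnnt3 at 0.27 and lowest for Tnni2 at -0.21. Among themselves the 9 also moved loosely: the rank correlation over their 36 pairs ran from -0.52 to 0.52, with a median of 0.07. Sparse counts limit all of these values, and a weak correlation here is no finding about the genes. The 5 protein-coding genes with the highest rank correlation to the sum of the 9, among those with a mean log2 CPM of at least 1, were Scn8a (0.84), Cep128 (0.78), Pde6h (0.77), Pax6 (0.77) and Gss (0.72). None of these encodes a sarcomere protein.

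The 5 genes whose levels over the 24 aortas were most like those of Tcap were all genes of the circadian clock. The clock is a transcriptional loop in which CLOCK or NPAS2 pairs with BMAL1 (encoded by Arntl) at E-boxes and drives its own repressors and output genes. Dbp, Tef and Hlf are related output factors that bind D-boxes and whose mRNA peaks when Arntl and Npas2 mRNA is low, and Bhlhe41 and Per3 are repressor-arm genes with E-box control. Of 11308 candidates, the 5 with the highest rank correlation were Bhlhe41 (0.81), Hlf (0.81), Per3 (0.78), Tef (0.78) and Dbp (0.77). Within the 12 KO aortas these 5 ran from 0.322 for Per3 to 0.608 for Dbp. Within the 12 WT aortas they ran from 0.615 for Bhlhe41 to 0.895 for Tef. At the other end stood Arntl at -0.74, Npas2 at -0.74 and Ppp3cb itself at -0.73. This likeness is a description too, over points that share depth, scaling and genotype.

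Against the mean log2 level of Dbp, Tef and Hlf, Tcap had an r of 0.90 and a rank correlation of 0.86 over 24 aortas. Dbp, Tef and Hlf were picked for their likeness to Tcap in these same libraries, so high values follow from that choice. The relation was also computed within genotype, since the KO and WT points are shifted from each other. The rank correlation was 0.62 over 12 KO aortas and 0.93 over 12 WT aortas. It was 0.85 in females and 0.83 in males, 0.97 under AngII and 0.75 in control aortas, and 0.82 as deviations from the 8 group means. Without the 2 aortas farthest from the median of that mean it was 0.81. The pooled rank correlation of 0.86 lay above the value within KO and below the value within WT. The part of the shift between genotypes in the pooled values was not tested.

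At the extremes of Tcap, single aortas lay along this relation. KO AngII male 3 had the highest Tcap, 159 CPM, with the highest Dbp, 138 CPM, and the lowest Arntl, 0.218 CPM. WT AngII female 1 had the lowest Tcap, 6.004 CPM, with the lowest Dbp, 6.25 CPM, and the highest Arntl, 40.3 CPM. WT control female 1 had the highest Tcap of the WT aortas, 67.0 CPM, and held 72.5 CPM of Dbp and 49.1 CPM of Hlf, which was the highest Hlf of the 12 WT aortas. Other aortas lay off it. KO control male 3 had 72.7 CPM of Tcap with the lowest Dbp of the KO aortas, 28.2 CPM, and the highest Arntl and Npas2 among them, 27.95 and 42.3 CPM. KO control female 1 had 66.2 CPM of Tcap with 28.7 CPM of Dbp. Of the 18 clock genes tested, 13 had a positive and 5 a negative rank correlation to Tcap, from -0.74 to 0.81.

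**Figure D3:**
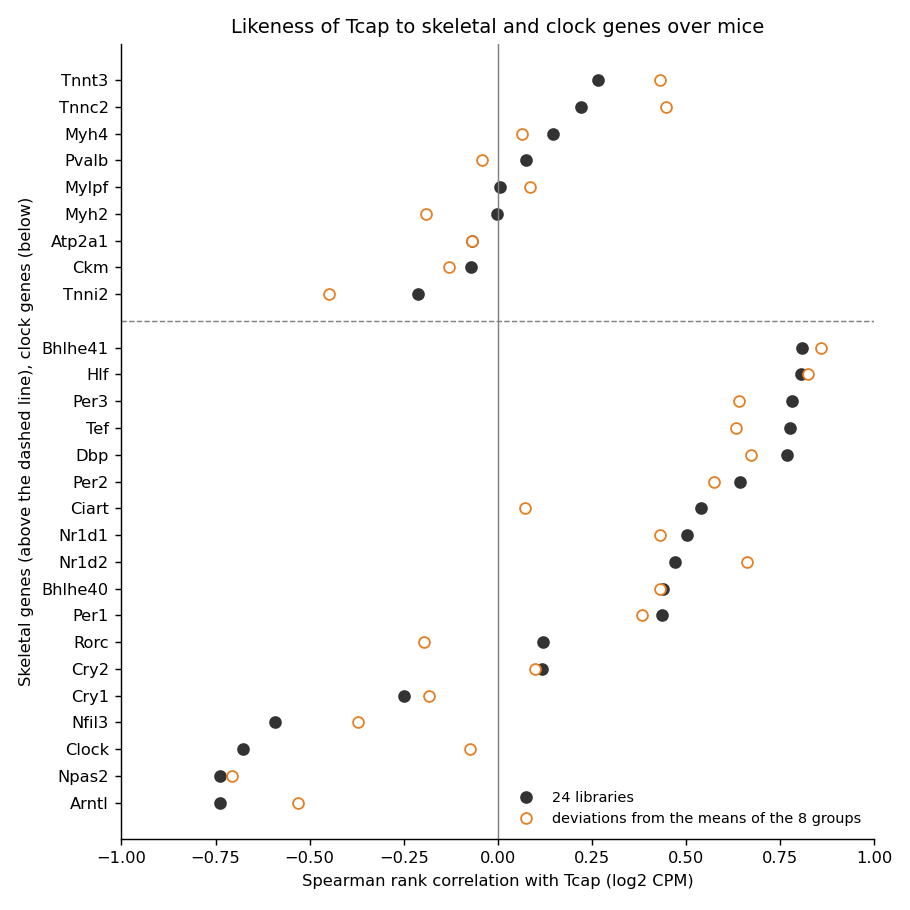
Each row is a gene and the horizontal axis is Spearman's rank correlation of its log2 CPM with that of Tcap over mice, for the 24 libraries (filled) and for deviations from the 8 group means (open). The 9 skeletal genes lie between -0.21 and 0.27 over the 24 libraries and between -0.45 and 0.45 as deviations. Over the 24 libraries Bhlhe41, Hlf, Per3, Tef and Dbp lie at 0.77 to 0.81 and Arntl and Npas2 at -0.74.

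Motif letters that clock factors recognise were looked for in the same upstream windows. CACGTG, the E-box of CLOCK and BMAL1, was in 6.02% of all promoters, in Bhlhe41 and Tef among the 5 genes, and in none of the 7 members in the table. TTATGTAA, a D-box, was in 0.819% of promoters, had 2 matches before Per3 and none before those 7 members. The muscle motif CAGCTG was also found before Tef, at position -118, and the windows of Hlf and Dbp held none of the 3 motifs, so the motifs do not separate the clock genes from the muscle genes. The Bhlhe41 match and 1 of the Per3 matches are shown in capitals because these genes tracked Tcap over the aortas.
Bhlhe41, chr6:145865538-145865603, minus strand: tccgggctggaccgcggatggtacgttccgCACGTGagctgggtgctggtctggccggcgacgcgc
Per3, chr4:151044786-151044853, minus strand: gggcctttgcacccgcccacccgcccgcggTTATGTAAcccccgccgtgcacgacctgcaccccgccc

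Tcap was higher in KO than in WT aortas under AngII, and a difference in the same direction in control aortas missed the threshold. Under AngII it read 49.9, 73.5 and 103 CPM in KO females and 75.9, 91.4 and 159 CPM in KO males. In WT aortas under AngII it read 6.004, 17.0 and 28.5 CPM in females and 37.1, 39.3 and 57.3 CPM in males. The lowest KO aorta, at 49.9 CPM, lay below the highest WT aorta, at 57.3 CPM, and the other 5 KO aortas lay above all 6 WT aortas. The mean was 92.2 ± 37.5 CPM in KO and 30.9 ± 18.0 CPM in WT (SD, n = 6 each), and the log2 change was 1.71 ± 0.31 (SE, edgeR adjusted p = 0.00425). In bulk tissue, more cells with a transcript and more of it per cell cannot be told apart.

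In control aortas Tcap read 55.4, 66.2 and 77.6 CPM in KO females and 72.7, 108 and 116 CPM in KO males. It read 15.2, 25.2 and 67.0 CPM in WT females and 20.3, 31.0 and 42.3 CPM in WT males. Of 6 KO aortas 4 lay above all WT aortas, and 5 of 6 WT aortas lay below all KO aortas, the exception being WT control female 1. The means were 82.7 ± 24.1 CPM in KO and 33.5 ± 18.9 CPM in WT (SD, n = 6 each). The log2 change was 1.29 ± 0.31 (SE) and missed the threshold in edgeR (adjusted p = 0.0673), while DESeq2 called it (adjusted p = 0.00628). Of 24 edgeR fits that each left out 1 library, 3 called it. These were without KO control female 2 (adjusted p = 0.0313), without WT AngII female 1 (0.0451) or without WT control female 1 (0.00786). The others did not call it, and the highest edgeR adjusted p was 0.248. Over both treatments 9 of 12 KO aortas lay above every WT aorta, and Tcap averaged 87.4 ± 30.5 CPM in KO and 32.2 ± 17.7 CPM in WT (SD, n = 12 each).

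**Figure D4:**
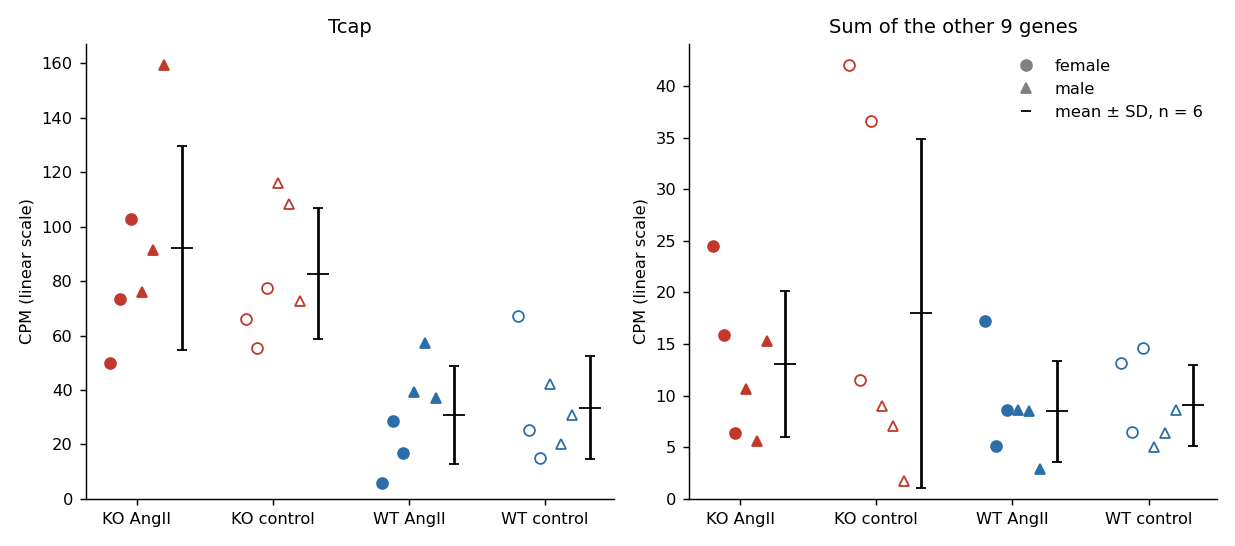
Points are single aortas (circles female, triangles male) in CPM on linear axes, for Tcap on the left and for the summed level of the other 9 genes on the right, with the mean ± SD of 6 aortas beside each set. Mean Tcap is higher in both KO sets than in both WT sets, with some overlap of single aortas. The mean sum is also higher in KO AngII and KO control (13.1 and 18.0 CPM) than in WT AngII and WT control (8.49 and 9.05 CPM). Single sums overlap more, and the highest, 42.0 and 36.6 CPM, are KO control females.

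Tcap was the only member called between KO and WT under AngII, as 1 of the 4 members that passed the filter on low counts (Tcap, Tnnt3, Atp2a1 and Myh2). In that comparison 0.355% of 16316 genes were called, and 0.306% were called as higher in KO. Because Tcap was chosen with results of these comparisons known, its place among the called genes is a description. The filter kept Tnnt3, Atp2a1 and Myh2 and dropped the other 6, which had 10 counts or more in at most 3 libraries each. Log2 changes under AngII were 0.66 ± 0.85 for Tnnt3, 0.09 ± 0.89 for Atp2a1 and 1.28 ± 0.94 for Myh2 (SE), and the adjusted p was 0.982, 1.00 and 0.904. A change as large as that of Tcap lies within 2 SE of each of these values. In control aortas 0.221% of genes were called and no member in edgeR (1 member, Tcap, at an unadjusted p below 0.05 and the same 1 in DESeq2). The changes there were 0.45 ± 0.88 for Tnnt3, 0.76 ± 0.89 for Atp2a1 and 1.25 ± 0.99 for Myh2.

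The sum of the 9 overlapped between genotypes. Its lowest, median and highest values were 5.62, 13.0 and 24.6 CPM in KO AngII and 2.88, 8.55 and 17.3 CPM in WT AngII. In control they were 1.70, 10.3 and 42.0 CPM in KO and 5.03, 7.57 and 14.6 CPM in WT. Only 1 of 6 KO aortas under AngII and 2 of 6 in control lay above all WT aortas. Those 2 control aortas were KO control females, a group with shallow libraries and high receptor counts, and the part of these library features in the sum was not tested. With the sum of the 9 as a covariate, the KO against WT change of Tcap was 1.73 under AngII (adjusted p = 0.0156) and 1.30 in control (adjusted p = 0.127), close to the values without it. The sum is sparse and had an r of 0.03 to Tcap, so the fit with it could change little. The part of skeletal muscle content in the change of Tcap was not tested.

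Of 18 clock genes tested, Hlf was the only one called between KO and WT under AngII by edgeR, and 11 had an unadjusted p below 0.05. Of all 16316 genes, 0.355% were called there and 1264 had an unadjusted p below 0.05. Hlf stood at 73.6 ± 34.1 CPM in KO and 27.0 ± 9.51 CPM in WT (SD, n = 6 each), a log2 change of 1.46 ± 0.30 (SE, edgeR adjusted p = 0.0143). The log2 changes of the others most like Tcap were 1.20 ± 0.34 for Dbp, 1.09 ± 0.27 for Bhlhe41, 0.89 ± 0.23 for Per3 and 0.82 ± 0.21 for Tef, and that of Arntl was -2.04 ± 0.49 (adjusted p 0.0622 to 0.163). These 5 passed in DESeq2. In control aortas 0 clock genes were called by edgeR and 7 had an unadjusted p below 0.05, against 0.221% called and 1587 at that unadjusted p over all 16316 genes. Bhlhe41 had a log2 change of 1.07 ± 0.28 there (SE, edgeR adjusted p = 0.0986), and DESeq2 called it and no other clock gene. With the mean of Dbp, Tef and Hlf as a covariate, chosen after the likeness had been seen, the change of Tcap under AngII was 0.50 and was not called (adjusted p = 0.76), and in control it was 0.86 (adjusted p = 0.138). These 3 genes were picked for their likeness to Tcap in the same libraries, and Hlf itself was called between the genotypes. A smaller change of Tcap follows from that choice, so these values are a description and no test of a cause.

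No AngII change of Tcap passed the test in either genotype. The log2 change was 0.16 ± 0.30 in KO, with means of 92.2 CPM under AngII and 82.7 CPM in control, and -0.27 ± 0.31 in WT, with means of 30.9 CPM under AngII and 33.5 CPM in control (SE, adjusted p = 0.951 and 0.989). In KO, 0% of genes were called by edgeR (1258 at an unadjusted p below 0.05, 17 by DESeq2), and none of the 4 members by any of these. In WT, 0.208% of genes were called and again none of the 4 members, at the adjusted or unadjusted threshold or in DESeq2. The difference between the responses was 0.43 ± 0.43 (adjusted p = 1.00), in a comparison where 0% of genes were called by edgeR or DESeq2 and 657 had an unadjusted p below 0.05.

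**Figure D5:**
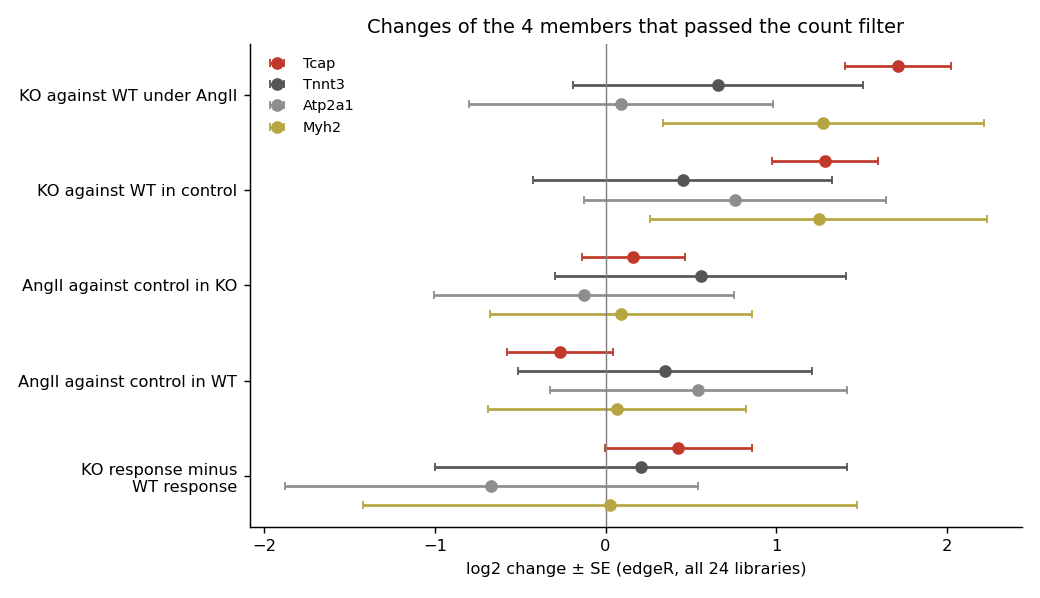
Points are log2 changes and bars 1 SE either way from the edgeR fit to all 24 libraries, for the 4 members that passed the count filter in the 5 comparisons. Tcap has the shortest bars and lies at 1.71 and 1.29 in the KO against WT comparisons, while the bars of Tnnt3 and Atp2a1 cross 0 in all 5.

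By sex, no Tcap difference was called by edgeR. Of all genes, 0% were called for KO against WT under AngII in females (785 at an unadjusted p below 0.05) and 0.0245% in males, and for KO against WT in control 0.815% in females and 0% in males (724 at an unadjusted p below 0.05). The KO against WT change of Tcap under AngII was 2.14 ± 0.45 in females and 1.29 ± 0.43 in males, and in control it was 0.90 ± 0.44 in females and 1.67 ± 0.44 in males (SE, unadjusted p below 0.05 in all 4). The male minus female difference was -0.84 ± 0.61 under AngII and 0.77 ± 0.61 in control, and neither was called. For these differences 0% and 0.0552% of genes were called (386 and 1892 at an unadjusted p below 0.05). AngII against control in WT was -1.05 ± 0.45 in females, where Tcap averaged 17.2 ± 11.2 CPM under AngII and 35.8 ± 27.5 CPM in control, and 0.52 ± 0.44 in males, where it averaged 44.6 ± 11.1 CPM under AngII and 31.2 ± 11.01 CPM in control (SD, n = 3 each). The male minus female difference of that response was 1.57 ± 0.62 (unadjusted p = 0.0173, adjusted p = 1.00). For AngII in WT, 0% of genes were called in females, in males or for the difference between them (509, 1082 and 515 at an unadjusted p below 0.05), and DESeq2 was not run by sex. The WT AngII females included the aorta with the lowest Tcap and Dbp of all.

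Other muscle genes were read from lists that were also chosen with earlier results known, leaving out the members. Of 12 other fast and general sarcomere genes tested, 0 were called by edgeR in any of the 5 comparisons, 1 to 3 had an unadjusted p below 0.05 in each, and DESeq2 called 0. Their most abundant entries were Tpm2 (1041 ± 278 CPM, a tropomyosin shared with smooth muscle), Neb (15.3 ± 8.95), Mybpc2 (4.57 ± 3.82) and Myl1 (3.34 ± 2.60), as means ± SD of 24 aortas. Neb encodes nebulin, a giant thin-filament protein. Rank correlations to Tcap were 0.11 for Tpm2, -0.45 for Neb, 0.01 for Mybpc2 and -0.24 for Myl1. Of the 12 tested genes Neb had the lowest and Mybpc1, with counts in 14 libraries, the highest, 0.39. Between KO and WT under AngII the median log2 change of that list was 0.52, against 0.01 over all genes, with 7 of the 12 higher. In control it was 0.76, against -0.01 over all genes, with 9 of the 12 higher and 3 at an unadjusted p below 0.05. The summed list had a rank correlation of 0.10 to Tcap. Most of that sum was Tpm2, so it says little about the other genes, and the median over the 12 tested genes was -0.02. Of 7 slow sarcomere genes tested, 0 were called in any comparison by edgeR or DESeq2, with 0 or 1 at an unadjusted p below 0.05. In control aortas their median log2 change between KO and WT was 0.48, against -0.01 over all genes, with all 7 higher. Under AngII the median was -0.19, against 0.01 over all genes, with 3 of the 7 higher.

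No tested partner of telethonin was called by edgeR, and several partners had too few counts to be tested. Of 22 listed Z-disc genes and partners, 12 were tested, and 0 of these passed in any comparison (1 to 5 at an unadjusted p below 0.05). DESeq2 called Flnc, a filamin of Z-discs and of smooth muscle, as lower in KO than WT under AngII, and as higher under AngII than in control in WT. Ttn, which encodes the titin that telethonin caps, averaged 41.5 ± 25.6 CPM in KO and 26.8 ± 7.92 CPM in WT (SD, n = 12 each) and had a rank correlation of 0.08 to Tcap. Csrp3, a Z-disc partner of telethonin, had counts in 3 of 24 libraries. It was too sparse to be tested, as were Myoz1, Myoz3, Myot, Mstn, Trim63, Ankrd2, Trim54 and Trim55. Each of these untested genes averaged at most 0.70 CPM over the 24 aortas, and more in KO than in WT. Their rank correlations to Tcap ran from 0.13 to 0.39, a description at such low counts. Summed without Tcap, the list ranged from 477 to 771 CPM in KO AngII, 368 to 939 in KO control, 661 to 1180 in WT AngII and 511 to 807 in WT control, and its rank correlation to Tcap was -0.21. The largest entries of that sum were Flnc, Jph2 and Ldb3, at means of 197.3, 156.5 and 130.1 CPM, so it says little about the sparse partners.

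Cardiac muscle, the other striated source of Tcap, was read from 9 tested marker genes, of which 0 were called in any comparison by edgeR or DESeq2 (1 to 4 at an unadjusted p below 0.05). In control aortas their median log2 change between KO and WT was 1.06, against -0.01 over all genes. There 7 of the 9 were higher and 3 had an unadjusted p below 0.05. Under AngII the median was -0.10, against 0.01 over all genes, with 3 of the 9 higher. The summed markers ran from 152 to 302 CPM in KO AngII, 150 to 232 in KO control, 156 to 278 in WT AngII and 163 to 241 in WT control, with a rank correlation of -0.23 to Tcap. Most of that sum was Ryr2 (168 ± 40.5 CPM), and the defining markers Tnnt2, Myh6 and Tnni3 averaged 10.2 ± 5.84, 5.02 ± 6.63 and 4.27 ± 12.3 CPM (SD, n = 24). The brown adipocyte markers, 181 to 358 CPM in KO AngII, 138 to 355 in KO control, 137 to 554 in WT AngII and 95.0 to 641 in WT control, had a rank correlation of -0.24 to Tcap. Contractile smooth muscle markers had a rank correlation of 0.26, general adipocyte markers -0.24, nerve and Schwann cell markers -0.17 and endothelial markers -0.07. EdgeR called 0 genes of these lists in any comparison, with 0 to 6 at an unadjusted p below 0.05, and DESeq2 called only Snap25, of the nerve list, as lower under AngII in KO.

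No neighbour of Tcap on chromosome 11 was called. Pnmt begins 1497 bases after Tcap and Stard3 ends 2699 bases before it. Of 11 tested genes around Tcap, edgeR and DESeq2 called 0 in any comparison (0 or 1 at an unadjusted p below 0.05), and their summed level had a rank correlation of 0.20 to Tcap. Cdk12, Fbxl20, Med1 and Erbb2, the 4 most abundant, had rank correlations of -0.22, 0.41, 0.02 and 0.07.

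Among genes of muscle atrophy and calcineurin signalling, 7 were tested. Besides Ppp3cb, Rcan1 was called lower in KO than WT under AngII, with a log2 change of -1.83 ± 0.35 (SE, edgeR adjusted p = 0.00744). Rcan1 encodes a calcineurin inhibitor whose transcription is known to be driven by calcineurin and NFAT. Its lowest, median and highest levels were 7.645, 10.5 and 17.2 CPM in KO AngII and 25.02, 43.1 and 53.6 CPM in WT AngII, which did not overlap. In control they were 0, 8.065 and 12.6 CPM in KO and 10.05, 13.0 and 26.8 CPM in WT. In WT its log2 change with AngII was 1.44 ± 0.34 (SE), which edgeR did not call (adjusted p = 0.070) and DESeq2 did. Its rank correlation to Tcap was -0.66. Fbxo32, the atrophy ubiquitin ligase, averaged 129 ± 45.2 CPM in KO and 123 ± 23.8 CPM in WT and was not called. Myogenic factors and neuromuscular genes had 7 members tested and 0 called by either tool (0 to 2 at an unadjusted p below 0.05). Their summed level had a rank correlation of 0.55 to Tcap, the highest of the muscle lists. Most of that sum was Mef2c, a transcription factor of muscle and other tissues, at 190 ± 47.7 CPM (SD, n = 24) and with a rank correlation of 0.51, while the median over the list was -0.15. By either tool, 0 of 11 muscle energy genes and 0 of 11 genes of skeletal calcium handling were called (0 or 1 at an unadjusted p below 0.05), and the rank correlations of their sums to Tcap were -0.05 and 0.02. The largest entries of the energy sum were Cox8b, also a brown adipocyte marker here, and Pygm, at means of 47.0 and 38.7 CPM. Those of the calcium sum were Jph2 and Cacna2d1, at 156.5 and 126.4 CPM. Both sums therefore say little about the sparser genes of their lists.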

How the data were processed

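Total RNA from 24 aortas was depleted of ribosomal RNA and sequenced, per the labels' protocols. The deposited values are raw counts per gene. Per the submitters' processing notes the tools were cutadapt 1.8.1, TopHat2 2.0.14, Bowtie2 2.2.5 and featureCounts 1.4.6 with build mm10, and strandedness is not given in the sources used here. The members and lists were chosen with earlier results of these data known. Counts were tested with edgeR 4.0.16 (R 4.3.3, quasi-likelihood F test, two-sided, TMM scaling, 1 coefficient for each of 8 groups, female and male contrasts averaged) after filterByExpr (minimum count 10, minimum total 15), which kept 16316 of 41128 genes, and p-values were adjusted by Benjamini-Hochberg at 0.05 over all of them. DESeq2 1.42.0 was an alternative. CPM is counts per library scaled by TMM, and log2 CPM used a prior count of 2. Exon lengths and positions came from GENCODE M21 (mm10) and promoter windows from RefSeq GRCm38.p6. Named per list were up to 4 genes with the largest mean CPM, any gene called, and the 5 genes most like Tcap and most like the sum of the other 9. Ttn, Csrp3 and the other untested Z-disc genes, Mybpc1, Arntl, Npas2 and the single libraries described were picked after their values were seen. The fit was tested on simulated data.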

Additional observations from a re-analysis of the deposited data

Results flagged for a closer look

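Among 37 sets of 6 aortas in which a member had counts, 11 had 1 library whose distance to its nearest neighbour was a large share of the set's range. For normally distributed values the limit marks about 1 in 20 sets by chance. That rate does not hold for sparse counts, where a single read is enough, so the 11 are no excess to be read. Tnnc2 read 5.73 CPM in KO control female 1 and no more than 0.244 CPM in the others of its set. Tnni2 read 4.75 CPM in KO AngII female 1 and 2.75 CPM in WT AngII female 1, with the next values at 0.738 and 0.575 CPM. Myh4 read 6.65 CPM in KO control female 3 and 4.24 CPM in WT control male 2. Myh2 read 5.17 CPM in WT control female 3. Mylpf read 1.63 CPM in WT control male 3, and Ckm 0.943 CPM in WT control male 2. Pvalb was counted in 1 of 6 libraries in 3 sets, at 0.244 CPM in KO control male 1, 0.307 CPM in WT AngII male 1 and 0.471 CPM in WT control male 2. Tcap was not among these genes in any of the 4 sets, nor was the sum of the other 9.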

How the results depend on the processing

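The KO against WT change of Tcap under AngII kept its call in each of 24 fits without 1 library (log2 change 1.49 to 1.99, adjusted p 0.00151 to 0.0190) and with DESeq2, RLE factors, no count filter or only the groups compared. The change also kept its call with the sum of the other 9 as a covariate, though that sum was only weakly correlated with Tcap. It was not called in females only (2.17) or males only (1.31), with 3 aortas a group, or with the mean of Dbp, Tef and Hlf as a covariate (0.50). In control aortas it was called with RLE factors (1.35), no count filter (1.23) and DESeq2 (1.35). With 1 library left out the values were 1.09 to 1.63, and 3 of 24 fits called it. AngII in KO gave -0.42 with the clock covariate and -0.005 to 0.29 with 1 library left out, negative only without KO AngII male 3. AngII in WT gave 0.50 in males only and -0.56 to 0.12 with 1 library left out, positive only without WT control female 1. The difference of the responses was -0.33 in males only, -0.34 without the 3 KO control females, -0.365 with the clock covariate and 0.07 to 0.76 with 1 library left out. No cause of these shifts was tested. Members called in control were 1 with RLE factors, 1 with no count filter, 1 with DESeq2 and 0 to 1 with 1 library left out; under AngII they were 0 in females only and 0 in males only. The rank correlation between Tcap and the other 9 was between -0.03 and 0.12 over the 6 alternatives, and between 0.03 and 0.20 with 1 library left out. Within genotype, sex or treatment, over 12 aortas each, it ran from -0.36 in KO to 0.39 in males. Counts of all genes called also moved. For KO against WT under AngII they were 182 with no filter, 0 in females, 0 in males, 152 by DESeq2 and 35 to 72 with 1 library left out. For KO against WT in control they were 260 with no filter, 21 with only the groups compared, 94 in females, 0 in males, 0 without the 3 KO control females, 183 by DESeq2 and 13 to 399 with 1 library left out (399 without KO control female 2). For AngII in WT they were 134 with no filter, 0 in females, 5 in males, 53 without the 3 KO control females, 80 by DESeq2 and 5 to 86 with 1 library left out (86 without WT AngII female 1, 5 without WT AngII female 3). For AngII in KO they were 85 with no filter, 1 with only the groups compared, 17 by DESeq2 and 0 to 113 with 1 library left out (113 without KO control female 2). For the difference of the responses they were 12 with no filter and 0 to 2 with 1 library left out. Same-numbered aortas had correlated deviations of r -0.10 to 0.13 between groups, not all over 0.1, so the numbers were not taken to pair aortas, although 12 of 24 libraries correlated best with their own number, where chance gives 8. A fit with the replicate number as a block gave Tcap changes of 1.71 and 1.29 for KO against WT and 52 and 30 genes called, under AngII and in control, and changed no call of a member. Depth limits the 9 other genes, most of whose values rest on fewer than 10 counts.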
